A study of Mus musculus with 48 samples.

Results

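The transcripts examined here encode the collagen chains that make up most of the fibrillar, basement membrane and microfibrillar collagen of connective tissue. They are the 10 genes of type I collagen (Col1a1 and Col1a2), type III collagen (Col3a1), type V collagen (Col5a1 and Col5a2), type IV collagen (Col4a1 and Col4a2) and type VI collagen (Col6a1, Col6a2 and Col6a3). The genes were selected by name alone, and each name matched 1 of the 29801 entries of the deposited expression table. All 10 genes reached the minimum mean level of 1 FPKM and were therefore among the 13590 genes tested. FPKM counts sequenced fragments relative to transcript length and to all mapped fragments, so levels of different genes are given per length. RNA of whole tibiae was sequenced from 12 male C57BL/6J mice in 4 groups of 3 mice each, namely aged CR, aged AL, young CR and young AL. In caloric restriction (CR), which lasted 8 weeks, the cut in food was 10% in week 1, 20% in week 2 and 40% from week 3 on, and the food was a variant of the standard diet enriched in micronutrients, while AL mice ate the standard diet ad libitum. Diet formula and restriction therefore cannot be told apart. Aged mice were 15 to 18 months old and young mice 10 weeks old when the diets began, according to the series' labels. All mice were single caged animals of a local colony with no engineered allele named in the sources, and whether the sequenced tibiae came from mice that underwent the study's osteotomy is not stated in those sources. The bones were freed of muscle and connective tissue and ground whole with their marrow. In such samples fewer cells of a type and less RNA per cell cannot be told apart.

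Collagens are trimers of chains that wind into a triple helix. Type I collagen, usually built from a pair of α1 chains and an α2 chain, is made by osteoblasts and forms the bulk of the organic bone matrix. Type V collagen is incorporated into type I fibrils and helps to set their diameter, and type III collagen is a homotrimer of distensible tissues such as vessel walls and skin that also occurs in periosteum and marrow stroma. Type IV collagen forms the network of basement membranes around vessels, and type VI collagen assembles into beaded microfilaments around cells.

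The series as a whole is described by a few facts that bear on these genes. Each mouse had 4 technical repeats, 48 libraries in all, and 1 value in the table. The values had been quantile normalized, so that the FPKM of each mouse summed to between 636207 and 636212, and 6856 to 8057 genes were listed at 0. Sequencing depth is unknown from such values, and the precision given below is the spread between mice. The alpha and beta globin transcripts of red blood cells took 29.1% of the FPKM in each mouse, a share that the normalization fixes for genes of the top ranks, and the 10 osteoblast and osteocyte markers examined were all detected, with a summed level of 522 to 2116 FPKM per mouse. The mice farthest from the others of their group over all tested genes were aged AL mouse 14 and aged CR mouse 5.

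The type I chains were far more abundant than the other collagen chains. Col1a2 was the most abundant, with a mean over 12 mice of 329.5 FPKM, and only 1.38% of the tested genes had a higher mean. Col1a1 followed with 195 FPKM. Among the 10 genes the next were Col5a2 with 12.8 FPKM and Col3a1 with 8.95 FPKM, and then Col6a1 with 6.69, Col6a2 with 6.03 and Col5a1 with 5.86 FPKM. The lowest of the 10 were Col4a1 with 4.34, Col4a2 with 3.14 and Col6a3 with 2.94 FPKM. Each neighbour in this order overlapped with the next over the 12 mice, except that every mouse had more Col1a1 than any had Col5a2. Outside the 10 genes, Col11a2 (19.1 FPKM) and Col2a1 (17.6 FPKM) had higher means than Col5a2. Col11a1 (7.01 FPKM) had a higher mean than Col6a1. The 10 genes together held 320.6 to 894.8 FPKM per mouse, which was 0.0504% to 0.141% of all FPKM. The type I chains made up 85.3% to 93.0% of that sum. The lowest sums were found in aged AL mouse 14 and young CR mouse 1 and the highest in young AL mouse 9.

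**Figure D1:**
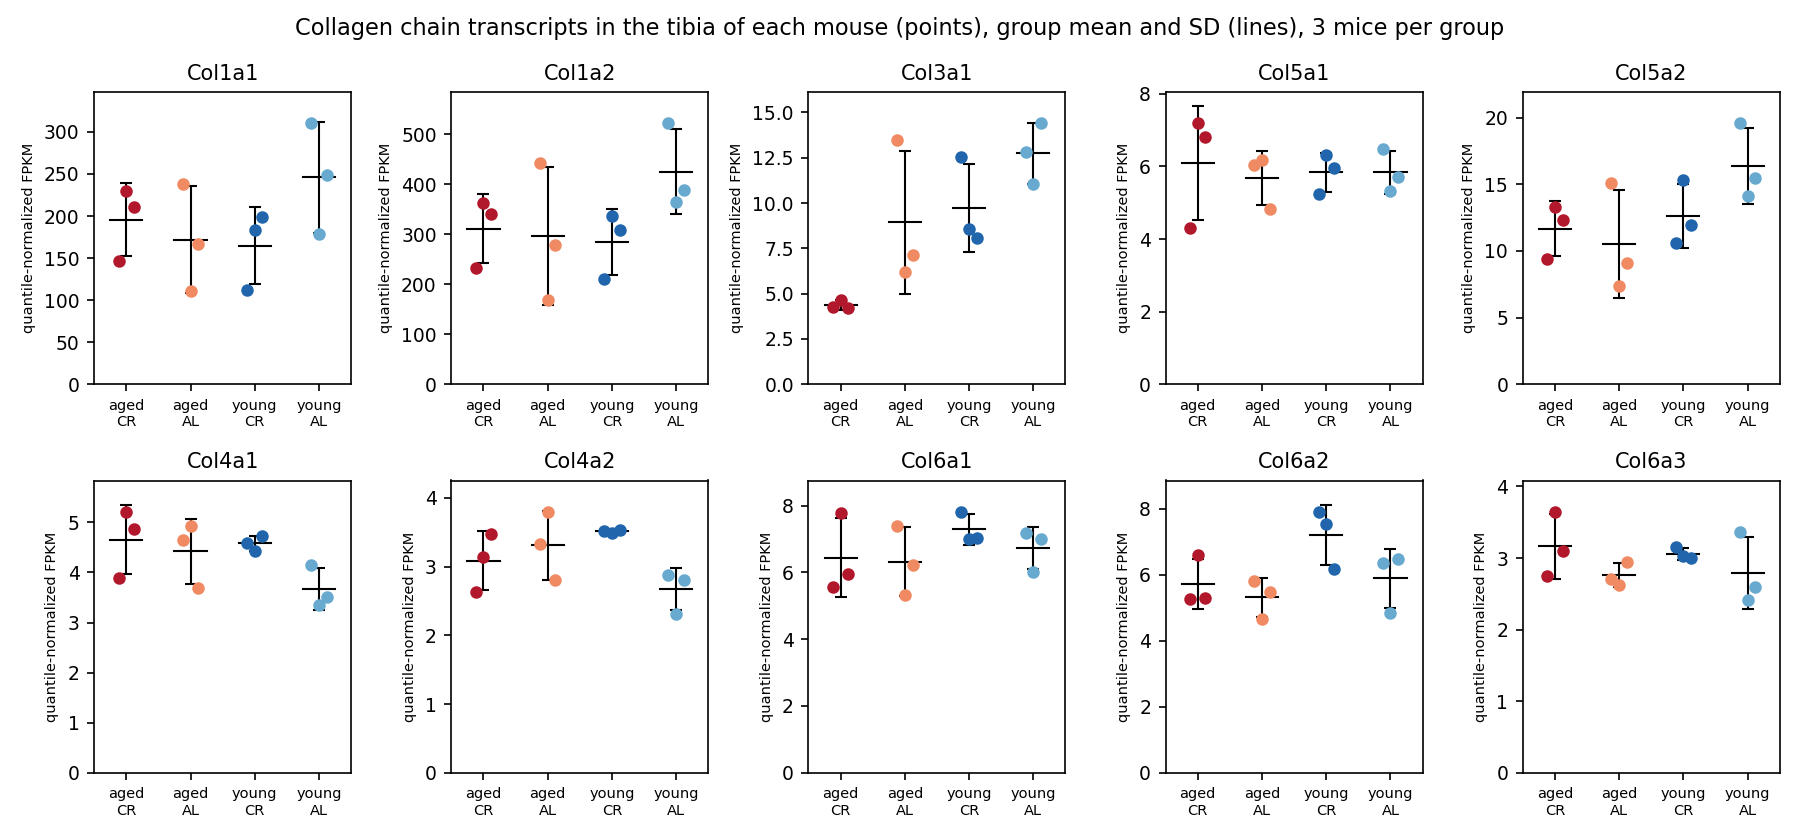
Quantile-normalized FPKM (y axes, from 0) of the 10 collagen chain genes in each of 12 tibiae, with aged CR, aged AL, young CR and young AL mice from left to right. Points are mice, and lines show the mean and SD of 3 mice per group. The 3 aged CR mice have the lowest Col3a1 levels (4.18 to 4.67 FPKM), and the 3 young CR mice lie above the young AL mice for Col4a1 and Col4a2.

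None of the 10 genes was called in any of the 7 comparisons made over the 12 mice, where called means an adjusted p under 0.05 in limma. For CR against AL over both ages, 0 of 10 genes were called, against 0.258% of all tested genes, and at an unadjusted p under 0.05 it was 1 of 10 (lower), against 6.45% of all genes that were lower at this p. For aged against young mice over both diets, 0 of 10 were called, against 0.758% of all genes, and 3 of 10 (all lower) had an unadjusted p under 0.05, against 9.76% of all genes lower. These unadjusted shares, here and in the next sentences, count only genes in the direction in which the collagen genes lay, a direction taken from their values. For CR against AL in young mice 0 of 10 were called (0.0662% of all genes), with 2 of 10 higher at an unadjusted p under 0.05 (5.79% of all genes). In aged mice 0 of 10 were called (0.0% of all genes), with 1 of 10 lower at an unadjusted p under 0.05 (3.22%). For aged against young mice on AL 0 of 10 were called (0.0662% of all genes), with 2 of 10 lower at an unadjusted p under 0.05 (5.07%). On CR 0 of 10 were called (0.361% of all genes), with 2 of 10 lower at an unadjusted p under 0.05 (6.39%). The interaction of diet and age called 0 of 10 (0.0% of all genes), with 1 of 10 below 0 at an unadjusted p under 0.05 (1.86%). An unequal-variance test on FPKM called none of the 10 after adjustment in the 4 pairwise comparisons, and without adjustment it called 2 of 10, Col4a1 and Col4a2, in young mice (8.65% of all tested genes) and 0 of 10 in the other comparisons (3.58%, 4.34% and 7.29% of all genes). The median log2 fold change of the 10 genes was 0.05 for diet, against 0.00 for all tested genes, and -0.13 for age, against -0.02 for all tested genes.

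**Figure D2:**
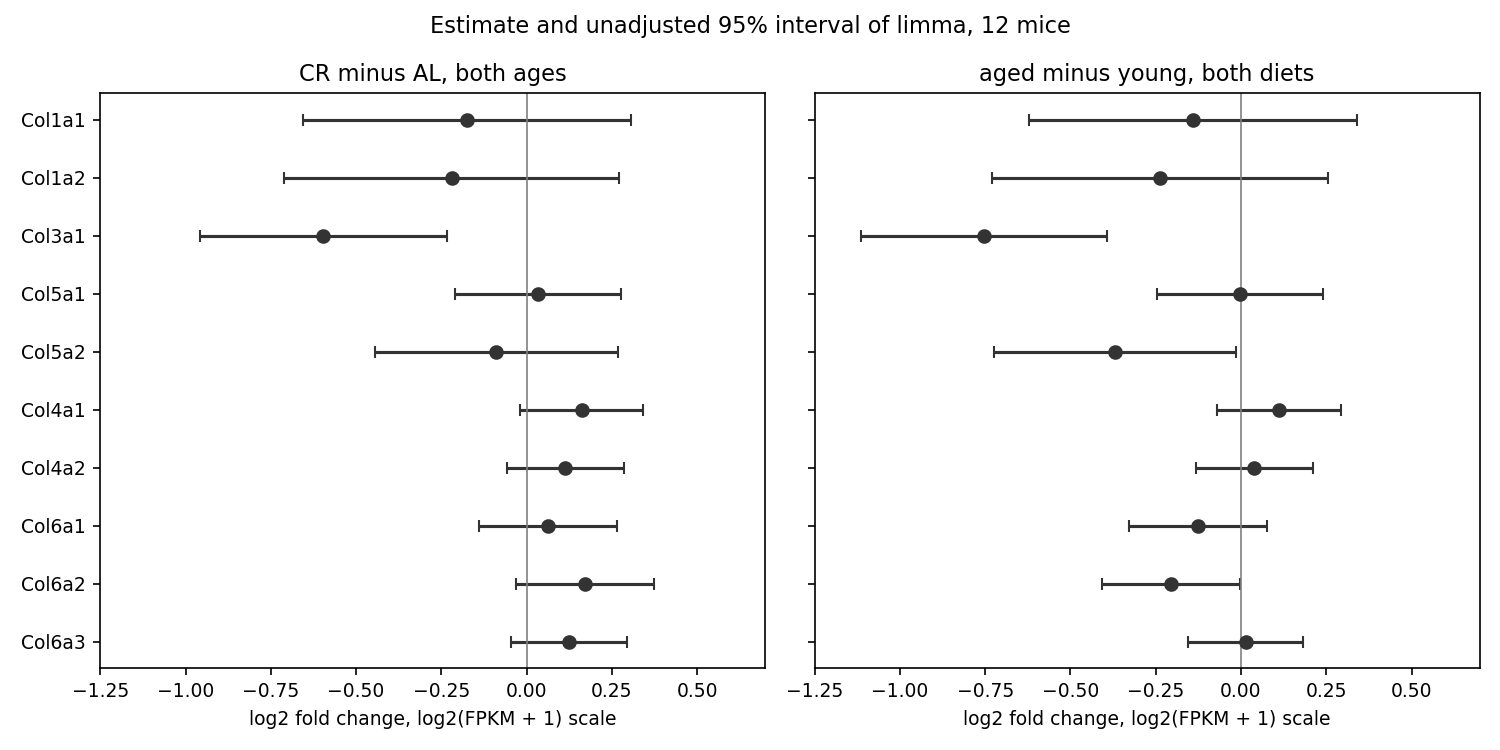
Log2 fold changes of the 10 collagen chain genes on the log2(FPKM + 1) scale (x axes) for CR minus AL over both ages (left) and aged minus young over both diets (right), fitted over 12 mice. Points are estimates and bars unadjusted 95% intervals of limma. For diet only the interval of Col3a1 leaves out 0, and for age those of Col3a1, Col5a2 and Col6a2 do.

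Neither type I gene passed the test in any comparison, and both varied widely between mice of a group. Col1a1 (ENSMUSG00000001506), which encodes the α1 chain, lies on the plus strand at chr11:94936224-94953042 of GRCm38, and Col1a2 (ENSMUSG00000029661), which encodes the α2 chain, lies on the plus strand at chr6:4504814-4541544. Col1a1 had 147, 229.8 and 211 FPKM in aged CR mice, against 238, 111 and 167 FPKM in aged AL mice. It had 112, 184 and 199 FPKM in young CR mice, against 310.2, 178.6 and 248.7 FPKM in young AL mice. The groups overlapped in each of these comparisons, with aged AL mouse 14 and young CR mouse 1 lowest and young AL mouse 9 highest. Col1a2 had 232, 362 and 339.7 FPKM in aged CR mice, against 443, 168 and 279 FPKM in aged AL mice, which overlapped. It had 209.7, 336 and 308 FPKM in young CR mice, against 522, 365 and 389 FPKM in young AL mice, so that all 3 young CR mice were below all 3 young AL mice. The log2 fold change of CR minus AL in young mice was -0.58 ± 0.31 (SE) for Col1a1 and -0.59 ± 0.32 for Col1a2 (limma, adjusted p = 0.522 and 0.525). In aged mice it was 0.23 ± 0.31 and 0.15 ± 0.32 (adjusted p = 0.911 and 0.948), and the interaction of diet and age, 0.81 ± 0.44 and 0.74 ± 0.45, was not called either (adjusted p = 0.999 for both). The aged values rest on mouse 14, without which they were -0.05 and -0.20. Over both diets the age difference was -0.14 ± 0.22 for Col1a1 and -0.24 ± 0.22 for Col1a2 (adjusted p = 0.794 and 0.634), with 95% intervals that reached 0.34 and 0.25 above 0. Both were above 0, at 0.10 and 0.04, with both aged AL mouse 14 and aged CR mouse 5 left out. Within groups the SD of log2(FPKM + 1) was 0.44 for Col1a1 and 0.45 for Col1a2, larger than that of 95.5% and 95.6% of the tested genes, whose median SD was 0.15. The mouse with the lowest type I collagen, aged AL mouse 14, also had the lowest sum of the osteoblast markers (522 FPKM) and the highest sum of the skeletal muscle markers (823 FPKM), and the part of these in its values was not tested.

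Col3a1 was the gene nearest to a call in the age and the diet comparison. Col3a1 (ENSMUSG00000026043), which encodes the single chain of type III collagen, lies on the plus strand at chr1:45311538-45349706 of GRCm38. It had 4.26, 4.67 and 4.18 FPKM in aged CR mice, against 13.5, 6.21 and 7.13 FPKM in aged AL mice. It had 12.5, 8.59 and 8.07 FPKM in young CR mice, against 12.8, 11.04 and 14.4 FPKM in young AL mice. The 3 aged CR mice were below the other 9 mice, while the aged AL, young CR and young AL mice overlapped. Groups without overlap were found for 1 of 10 genes, Col3a1, lower in aged CR than in aged AL mice (5.33% of all tested genes were lower without overlap), and for 2 of 10, Col3a1 and Col4a2, lower in aged CR than in young CR mice (10.6%). Over both diets Col3a1 averaged 6.65 ± 3.54 FPKM in aged mice and 11.2 ± 2.50 FPKM in young mice (SD, n = 6 each), a log2 fold change of -0.75 ± 0.16 (SE; limma, adjusted p = 0.0686). Without aged AL mouse 13, the aged mouse with the highest value, the age difference was -0.91 and passed the threshold (adjusted p = 0.00547), and over all single mice left out the adjusted p lay between 0.00547 and 0.171. Over both ages Col3a1 averaged 7.05 ± 3.32 FPKM in CR mice and 10.8 ± 3.43 FPKM in AL mice (SD, n = 6 each), a log2 fold change of -0.60 ± 0.16 (adjusted p = 0.145). CR minus AL was -0.82 ± 0.23 in aged mice (adjusted p = 0.441) and -0.37 ± 0.23 in young mice (adjusted p = 0.579), and the interaction was -0.44 ± 0.33 (adjusted p = 0.999). Aged minus young was -0.98 ± 0.23 on CR (adjusted p = 0.112) and -0.53 ± 0.23 on AL (adjusted p = 0.560). On CR the adjusted p without aged AL mouse 13, which is not in that comparison but enters the estimate of the spread, was 0.0333. With a quality weight per mouse in limma Col3a1 was called for age, for diet, for CR against AL in aged mice and for aged against young mice on CR, with adjusted p between 0.00885 and 0.0278. Under these weights the calls over all 13590 genes in the same order were 1798, 923, 193 and 1711, against 103, 35, 0 and 49 without them. Among aged AL mice the weight was 3.58 for mouse 13, against 0.259 for mouse 14 and 0.622 for mouse 15. Mouse 13 had the highest Col3a1 level of the aged mice. Of the 7 tendon and fibroblast markers examined 5 were tested, and limma called 0 of them in these 4 comparisons. Against 9.76%, 6.45%, 3.22% and 6.39% of all tested genes lower at an unadjusted p under 0.05, it was 1, 1, 1 and 3 of 5 markers, all lower. Their summed level was 37.4 to 42.0 FPKM in aged CR, 26.8 to 50.3 in aged AL, 41.4 to 47.0 in young CR and 38.5 to 44.4 FPKM in young AL mice, none was at 0 in any mouse, and their part in the Col3a1 values was not tested. Their estimates differed in sign: for diet 3 of 5 were above 0 (Dpt 0.17, Pi16 0.15 and Pdgfra 0.05) and 2 below (Thbs4 -0.57 and Clec3b -0.01), with a list median of 0.05, and between aged CR and aged AL mice Pdgfra (0.14) and Pi16 (0.23) were above 0 and the other 3 below.

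The sequence before the Col3a1 start is shown because Col3a1 was the member with the smallest p. It was taken from the RefSeq promoter table of GRCm38.p6 and covers the 250 bases before the annotated start (chr1:45311288-45311537, plus strand), with the capitals marking the letters TATAAA.
Col3a1: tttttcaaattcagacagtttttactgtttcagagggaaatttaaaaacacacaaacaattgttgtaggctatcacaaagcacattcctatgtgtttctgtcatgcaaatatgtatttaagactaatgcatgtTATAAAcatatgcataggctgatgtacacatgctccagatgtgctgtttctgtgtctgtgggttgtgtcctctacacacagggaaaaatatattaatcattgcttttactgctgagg
The match lies at -117 to -112 from the start, on the strand of the gene. TATAAA was found on either strand in 14.2% of 27025 promoter windows of 300 bases, which run from 250 bases before to 50 bases after a start. CCAAT and GGGCGG, the other letters searched on both strands, which share no overlap with it, were found in 37.9% and 35.9% of the windows and not in that of Col3a1. Windows were available for 8 of the 10 genes.

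Neither chain of type V collagen passed the test in any comparison. Col5a2 (ENSMUSG00000026042), which encodes the α2(V) chain, is the neighbour of Col3a1, on the minus strand at chr1:45374321-45503282 with 24614 bases between the genes. Col5a2 had 9.37, 13.3 and 12.3 FPKM in aged CR mice, against 15.1, 7.40 and 9.10 FPKM in aged AL mice, and 10.6, 15.3 and 11.9 FPKM in young CR mice, against 19.6, 14.2 and 15.5 FPKM in young AL mice. All 4 groups overlapped in the comparisons made. Its log2 fold change was -0.37 ± 0.16 (SE) for aged minus young over both diets (limma, adjusted p = 0.285) and -0.64 ± 0.23 for aged minus young on AL (adjusted p = 0.517). With aged AL mouse 14 and also aged CR mouse 5 left out, the mice farthest from their groups, these were -0.20 and -0.44. For diet it was -0.09 ± 0.16 (adjusted p = 0.845). Col5a1 (ENSMUSG00000026837), which encodes the α1(V) chain, lies on the plus strand at chr2:27886425-28039514. It had 4.30, 7.19 and 6.81 FPKM in aged CR mice, against 6.04, 6.18 and 4.83 FPKM in aged AL mice, and 5.25, 6.30 and 5.95 FPKM in young CR mice, against 6.49, 5.31 and 5.70 FPKM in young AL mice. The groups overlapped, with the lowest and the highest of all values both among aged CR mice. The estimate was 0.03 ± 0.11 for diet and -0.00 ± 0.11 for age (adjusted p = 0.918 and 0.994), and 95% intervals ran from -0.21 to 0.28 and from -0.25 to 0.24.

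The type IV chains were higher in young CR than in young AL mice in each mouse, without passing the test after adjustment. Col4a1 (ENSMUSG00000031502), which encodes the α1(IV) chain, lies on the minus strand at chr8:11198423-11312826, and Col4a2 (ENSMUSG00000031503), which encodes the α2(IV) chain, on the plus strand at chr8:11312805-11449287, so that the genes start head to head and share 22 bases. The shared stretch with 4 bases on each side is shown because it is annotated as transcribed in both directions at the start of a pair of genes whose levels correlated. It was taken from the RefSeq promoter table of GRCm38.p6 (chr8:11312801-11312830, plus strand), with capitals for the letters GGGCGG, which lie on the strand of Col4a2. GGGCGG is found in 35.9% of all promoter windows, and no further meaning is drawn from it.
Col4a1 and Col4a2: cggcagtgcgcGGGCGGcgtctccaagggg
Col4a1 had 3.89, 5.21 and 4.87 FPKM in aged CR mice, against 4.65, 4.93 and 3.70 FPKM in aged AL mice, and the groups overlapped. It had 4.597, 4.43 and 4.73 FPKM in young CR mice, against 4.14, 3.36 and 3.51 FPKM in young AL mice, which did not overlap. Col4a2 showed the same order, with 3.52, 3.49 and 3.53 FPKM in young CR mice, against 2.88, 2.32 and 2.81 FPKM in young AL mice. In aged mice Col4a2 had 2.63, 3.14 and 3.48 FPKM on CR, against 3.32, 3.80 and 2.81 FPKM on AL, with overlap. Groups without overlap were found for 3 of 10 genes in young mice, Col4a1 and Col4a2 (higher on CR) and Col1a2 (lower on CR), against 19.5% of all tested genes, and for 0 of 10 between aged AL and young AL mice, against 13.2%. The log2 fold change of CR minus AL in young mice was 0.26 ± 0.12 (SE) for Col4a1 and 0.30 ± 0.11 for Col4a2 (limma, adjusted p = 0.442 and 0.366). In aged mice it was 0.06 ± 0.12 and -0.08 ± 0.11 (adjusted p = 0.943 and 0.920). The interaction was -0.20 ± 0.16 and -0.38 ± 0.16 (adjusted p = 0.999 for both); that of Col4a2 was -0.22 when mouse 14 (aged AL) and mouse 5 (aged CR) were left out. The age difference over both diets was 0.11 ± 0.08 for Col4a1 and 0.04 ± 0.08 for Col4a2 (adjusted p = 0.527 and 0.846), and the diet difference 0.16 ± 0.08 and 0.11 ± 0.08 (adjusted p = 0.417 and 0.557). The summed level of the 8 endothelial markers, all of them detected in every mouse, was 64.4 to 66.5 FPKM in young CR mice, against 56.2 to 60.6 FPKM in young AL mice, and 65.1 to 71.6 FPKM in aged CR mice, against 63.1 to 69.5 FPKM in aged AL mice. For CR minus AL in young mice limma called 0 of these 8 markers. At an unadjusted p under 0.05 there were 3 higher (5.79% of all tested genes were higher at this p) and 1 lower. CR minus AL was above 0 for 7 of 8 markers in young mice (median log2 fold change 0.13) and for 5 of 8 in aged mice (median 0.06). The part of the endothelial markers in the type IV values was not tested.

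No type VI gene passed the test in any comparison. Col6a1 (ENSMUSG00000001119; chr10:76708792-76726168) and Col6a2 (ENSMUSG00000020241; chr10:76595762-76623630), which encode the short α1(VI) and α2(VI) chains, lie on the minus strand with 85161 bases between them, and Col6a3 (ENSMUSG00000048126), which encodes the long α3(VI) chain, is on the minus strand at chr1:90765923-90843971. Col6a1 had 5.56, 7.79 and 5.97 FPKM in aged CR mice, against 7.39, 5.33 and 6.22 FPKM in aged AL mice, and 7.81, 7.01 and 7.04 FPKM in young CR mice, against 7.19, 6.01 and 6.99 FPKM in young AL mice. Col6a2 had 5.26, 6.61 and 5.30 FPKM in aged CR mice, against 5.81, 4.67 and 5.48 FPKM in aged AL mice, and 7.91, 7.54 and 6.18 FPKM in young CR mice, against 6.35, 4.85 and 6.47 FPKM in young AL mice. Young CR mice 1 and 2 were above all other mice for Col6a2, and the groups overlapped in each comparison for both genes. Col6a3 had 2.75, 3.65 and 3.10 FPKM in aged CR mice, against 2.71, 2.63 and 2.95 FPKM in aged AL mice, and 3.15, 3.02 and 3.001 FPKM in young CR mice, against 3.36, 2.42 and 2.596 FPKM in young AL mice, again with overlap. For diet the log2 fold changes were 0.06 ± 0.09, 0.17 ± 0.09 and 0.12 ± 0.08 for Col6a1, Col6a2 and Col6a3 (SE; limma, adjusted p = 0.803, 0.437 and 0.502). For age they were -0.13 ± 0.09, -0.20 ± 0.09 and 0.01 ± 0.08 (adjusted p = 0.522, 0.295 and 0.952). The difference of Col6a2 was -0.29 ± 0.13 for aged minus young on CR (adjusted p = 0.428), and it was called there with a quality weight per mouse (adjusted p = 0.0378).

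The ratios in FPKM of the type I chains, of the type IV chains and of Col6a1 to Col6a2 varied little over the mice. Col1a1/Col1a2 lay between 0.489 and 0.659 in the 12 mice, although the FPKM of Col1a2 differed by 3.10 times between the lowest and the highest mouse. Col4a1/Col4a2 lay between 1.25 and 1.66, and Col6a1/Col6a2 between 0.930 and 1.27. The genes of these type IV and VI ratios themselves varied little. Their lowest and highest mice differed by 1.55 times for Col4a1, 1.64 for Col4a2, 1.47 for Col6a1 and 1.69 for Col6a2. Col6a3/Col6a1 lay between 0.366 and 0.520. FPKM per gene depends on the transcripts it is computed for, so these ratios describe transcript levels and not the makeup of the proteins. The ratios across types or with the type V chains varied more. Col5a1/Col5a2 averaged 0.553 ± 0.150 in aged mice and 0.414 ± 0.069 in young mice (SD, n = 6 each), a log2 difference of 0.40 (exact permutation test within the diets, two-sided, p = 0.03, adjusted p = 0.28 over 14 tests). The highest ratio, 0.835, was that of aged AL mouse 14. Col3a1/Col1a1 averaged 0.037 ± 0.017 in aged mice and 0.060 ± 0.027 in young mice, a log2 difference of -0.72 (exact permutation p = 0.04, adjusted p = 0.28), and CR minus AL was -0.50 (exact permutation p = 0.15, adjusted p = 0.397). The 3 aged CR mice had Col3a1/Col1a1 ratios of 0.029, 0.020 and 0.020, below those of the other 9 mice, and young CR mouse 1 had the highest with 0.111. None of 7 ratios tested for age and for diet passed after adjustment, the smallest adjusted p being 0.28. With 400 permutations the smallest p is 0.005, which gives a single ratio an adjusted p of 0.07 over 14 tests, so that no ratio could have passed alone.

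**Figure D3:**
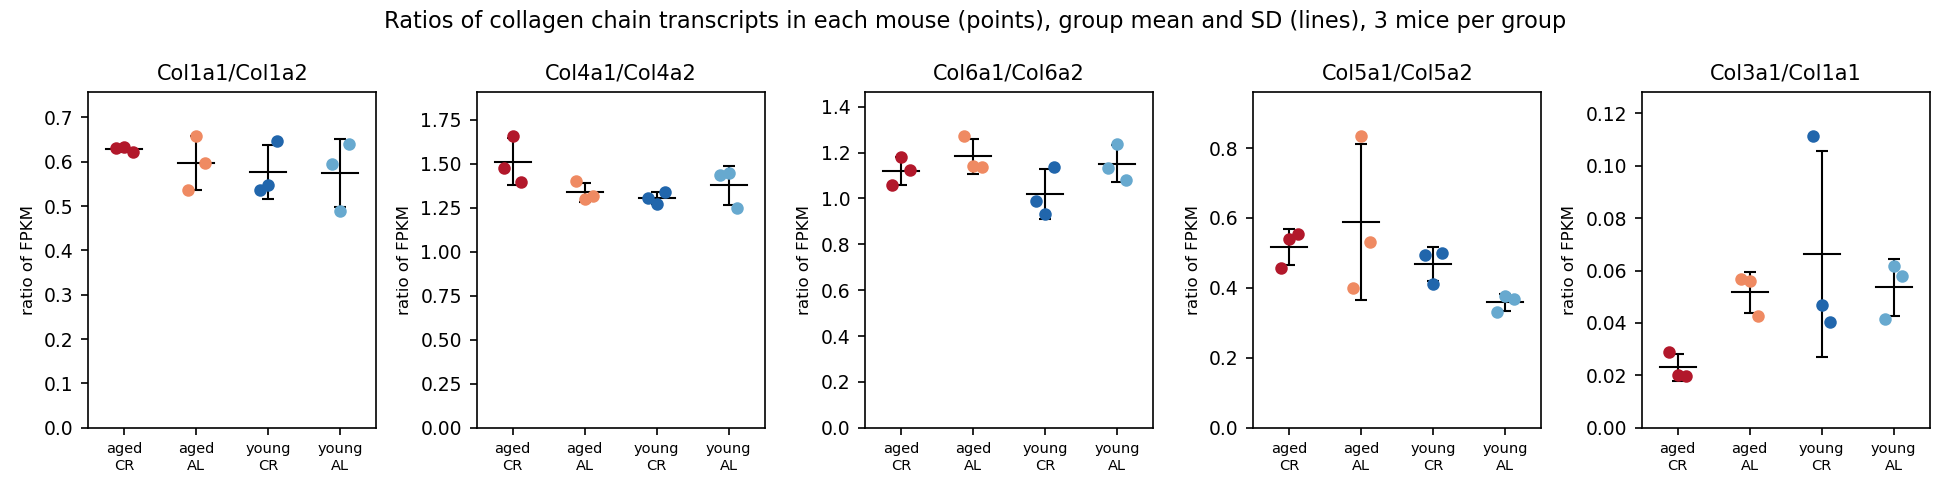
Ratios of FPKM of collagen chain genes (y axes, from 0) in each of 12 tibiae, with aged CR, aged AL, young CR and young AL mice from left to right. Points are mice, and lines show the mean and SD of 3 mice per group. Col1a1/Col1a2 stays between 0.489 and 0.659, and Col3a1/Col1a1 is lowest in the 3 aged CR mice.

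Across the 12 mice, 5 of 45 pairs of the genes had a correlation of log2(FPKM + 1) that passed after adjustment over the pairs. They were Col1a1 with Col1a2 (Pearson's r = 0.96, Spearman's rho = 0.92), Col1a2 with Col5a2 (r = 0.92, rho = 0.89), Col1a1 with Col5a2 (r = 0.85, rho = 0.84), Col4a1 with Col4a2 (r = 0.85, rho = 0.75) and Col6a1 with Col6a2 (r = 0.85, rho = 0.83). The permutation p-values, from 100000 permutations, were 1e-05, 4e-05, 0.00061, 0.00069 and 0.00069 for r, the first being the smallest these permutations can give, and the adjusted p-values were 0.00045, 0.0009, 0.00621, 0.00621 and 0.00621. For rho the permutation p-values were 5e-05, 0.00024, 0.00092, 0.00745 and 0.00179 (adjusted p = 0.00225, 0.0054, 0.0138, 0.0671 and 0.0201), so that the type IV pair did not pass by rank. Without the 2 mice farthest from the median of the first gene, r was 0.91, 0.92, 0.83, 0.76 and 0.79 in the same order of pairs. Calculated on the deviations from the group means, which removes the diets and ages, r was 0.95, 0.95, 0.88, 0.86 and 0.84. No test was run on these deviations, and the permutations above moved mice across the groups. Col3a1 was not among these pairs, with r = 0.26 to Col1a1 and r = 0.41 to Col1a2. Its highest r was 0.54, to its neighbour Col5a2 (permutation p = 0.0684, adjusted p = 0.28). Col4a1 and Col4a2 had r below 0 with Col1a1 (-0.10 and -0.27) and with Col1a2 (-0.19 and -0.35), and none passed. These signs turned in both checks, with r = 0.34, 0.21, 0.26 and 0.06 on the deviations from the group means and r = 0.26, 0.23, 0.12 and 0.10 without the 2 farthest mice.

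**Figure D4:**
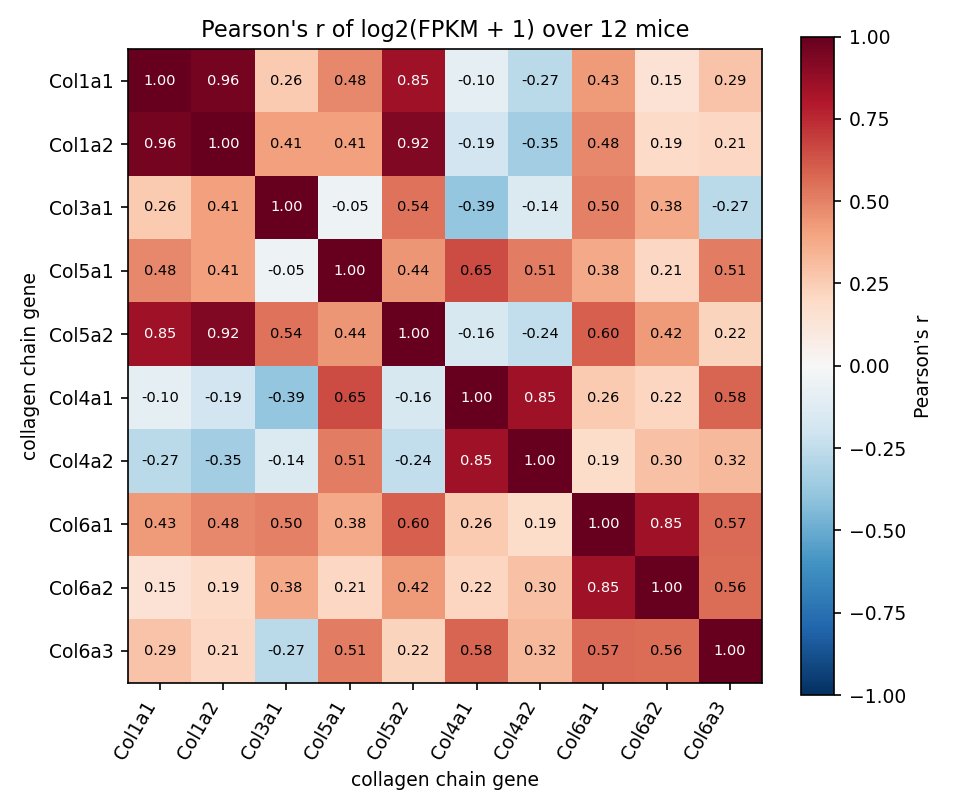
Pearson's r of log2(FPKM + 1) over 12 mice for each pair of the 10 collagen chain genes (both axes), with colour from -1 (blue) to 1 (red). Type I chains and Col5a2 form 1 block (0.85 to 0.96), and the type IV pair and Col6a1 with Col6a2 each have r = 0.85.

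Genes outside these 10 whose level followed each collagen over the 12 mice were ranked by Pearson's r as a description, without a test. The mean of Col1a1 and Col1a2 was followed most closely by Sparc (r = 0.89), which encodes the collagen-binding bone protein osteonectin. Ano1, Cacna1g, the collagen receptor gene Ddr2 and the fibrillar collagen gene Col11a2 came next (r = 0.88, 0.87, 0.86 and 0.85), before Cyp4f13 and Calcoco1 (r = 0.85 each). Sparc averaged 383 ± 86.5 FPKM in aged CR, 336 ± 128 in aged AL, 434 ± 72.1 in young CR and 529 ± 65.4 FPKM in young AL mice (SD, n = 3). The mean of the type VI genes was followed by Cd109 (r = 0.91), Ccdc80 and Wdr34 (r = 0.88 each), Tigd3, Tead2, Selenbp1, Mgst3 and the cartilage matrix gene Comp (r = 0.83 to 0.85). The mean of Col4a1 and Col4a2 was followed by Gm10254 (r = 0.95), Wdr81, Abcf2, 1700102P08Rik, Rmdn3, Mfn1, Rfx2 and Usp10 (r = 0.88 to 0.91), none of them a basement membrane gene of the list below. For Col3a1, which was added to this ranking after its values were seen, the genes were the small leucine-rich proteoglycan genes Fmod (r = 0.94) and Lum (r = 0.91), the collagen cross-linking enzyme gene Loxl2 (r = 0.92), Thbs4 (r = 0.92), Trdmt1, Akap12, Cdc20 and Gm10384 (r = 0.90 to 0.92). On the deviations from the group means these r were lower, at 0.88 for Fmod, 0.87 for Thbs4, 0.74 for Lum, 0.67 for Loxl2 and 0.58 to 0.67 for the other 4.

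All 16 other collagens tested had age estimates below 0. The table holds 34 further collagen genes, of which 16 were tested and the remaining 18 had means of at most 0.685 FPKM. In aged against young mice over both diets 7 of these 16 were called, all lower in aged mice, against 0.758% of all tested genes called in either direction. At an unadjusted p under 0.05 there were 13 of 16 lower, against 9.76% of all tested genes. Col9a1, Col14a1 and Col24a1, which are among these lower genes, averaged under 1 FPKM in each aged group. They reached the minimum mean only through the young mice. The median log2 fold change was -0.56 for the 16 and -0.13 for the 10 chains above, a difference that was not tested. Col2a1, the main collagen of cartilage, averaged 6.01 ± 0.61 FPKM in aged CR and 7.01 ± 2.41 in aged AL mice, against 25.1 ± 5.10 in young CR and 32.2 ± 5.66 FPKM in young AL mice (log2 fold change -1.98; limma, adjusted p = 0.000235). Col10a1, made by hypertrophic chondrocytes of the growth plate, averaged 0.902 ± 0.027 and 1.19 ± 0.70 FPKM in aged CR and aged AL mice, against 5.92 ± 1.52 and 8.02 ± 1.66 FPKM in young CR and young AL mice (-1.95, adjusted p = 0.000235). The 3 chains of type IX collagen, which decorates cartilage fibrils, were lower in aged mice, at -2.22 (Col9a1), -2.17 (Col9a2) and -1.82 (Col9a3) on the log2 scale. These 5 cartilage collagens were called also in aged against young mice on AL and on CR taken separately. Col9a1 averaged 0.044 ± 0.015 and 0.123 ± 0.093 FPKM in aged CR and aged AL mice, against 3.40 ± 1.24 and 4.91 ± 0.88 FPKM in young CR and young AL mice. At such low aged levels its log2(FPKM + 1) fold change understates the change in FPKM. Col27a1, another cartilage collagen (-0.67), and the fibril-associated Col12a1 (-0.43) were called over both diets, with adjusted p = 0.0263 and 0.0472. Over both diets the calls of the 5 cartilage collagens were kept in all 12 fits without 1 mouse. That of Col27a1 was lost without young CR mouse 1, young CR mouse 2, aged CR mouse 7 or aged AL mouse 15, and that of Col12a1 was kept in only 2 of the 12 fits, those without young CR mouse 3 or aged CR mouse 6. Within the diets, the calls of Col2a1 and Col10a1 on CR were lost without young CR mouse 1, that of Col9a3 on CR without young CR mouse 1 or aged CR mouse 7, and that of Col9a3 on AL in 6 of the 12 fits. A fit of only the groups compared ended the calls of Col2a1, Col10a1 and Col9a3 on AL and of Col9a3 on CR, and testing without the filter on low values ended both calls of Col9a3 within the diets and those of Col27a1 and Col12a1 over both diets. That of Col12a1 was also lost with aged AL mouse 14 and also aged CR mouse 5 left out. The fibrillar collagens of cartilage and bone Col11a1 and Col11a2 were at -0.81 and -0.60 on the log2 scale (limma, adjusted p = 0.0583 and 0.163). Of the 8 chondrocyte markers examined, which include Col2a1, Col9a1 and Col10a1, 6 were tested. Limma called 5 of these lower in aged mice over both diets, against 0.758% of all tested genes. They were these 3 collagens, Acan and Matn3. The calls of Acan and Matn3 over both diets were kept in all 12 fits without 1 mouse. On CR both were also called, but not in a fit of only the groups compared, and that of Acan was lost without young CR mouse 1 or 2. The summed level of the 8 markers was 29.7 to 37.1 FPKM in aged CR and 21.9 to 43.5 in aged AL mice, against 71.5 to 95.3 in young CR and 66.3 to 92.5 FPKM in young AL mice, and the cartilage markers Matn1 and Matn3 were at 0 in at least 1 mouse. For diet limma called 0 of the 16 collagens, with a median log2 fold change of -0.12. At an unadjusted p under 0.05 there was 1 lower for diet, against 6.45% of all tested genes lower.

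**Figure D5:**
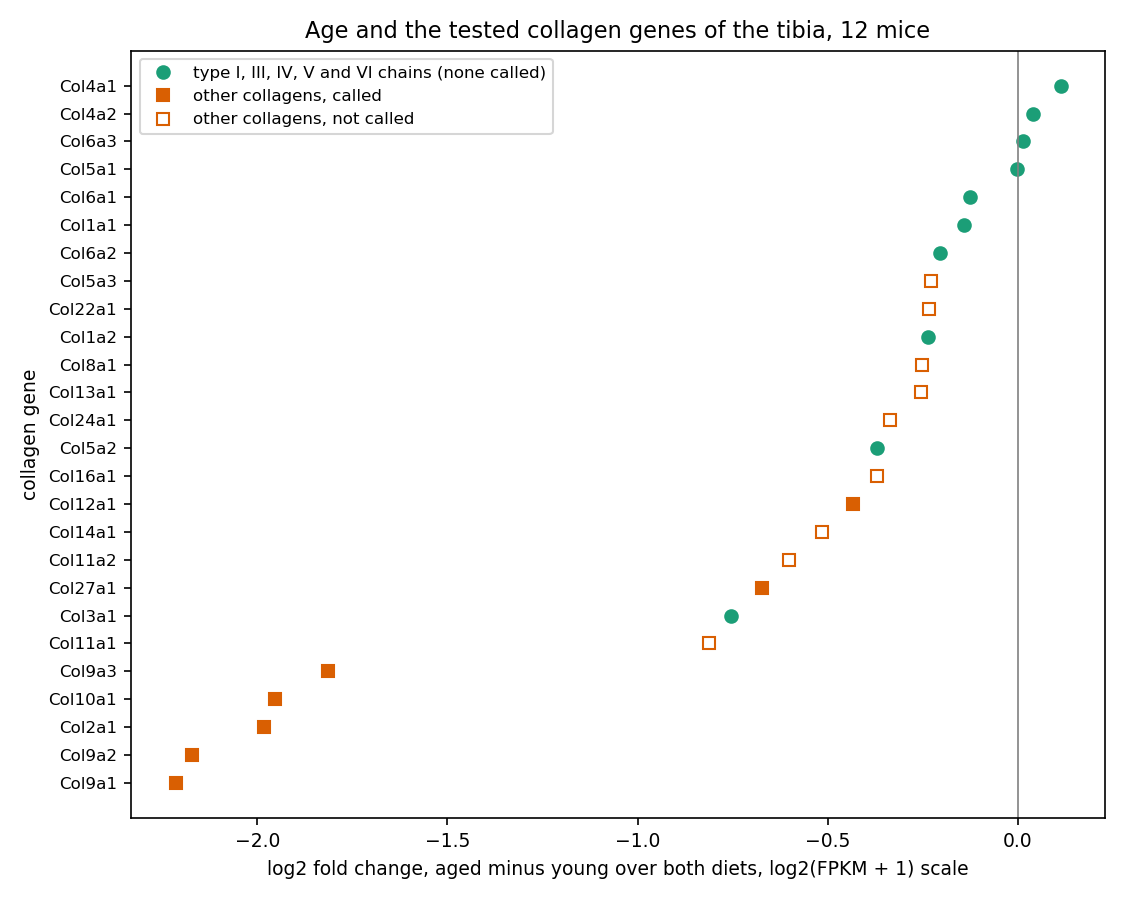
Log2 fold change for aged minus young mice over both diets (x axis, log2(FPKM + 1) scale) of the 26 tested collagen genes, ordered by value, fitted over 12 mice. Circles are the type I, III, IV, V and VI chains described here, none of them called, and squares the other collagens, filled where called by limma and open where not. Filled squares number 7 and reach -2.22 for Col9a1, and the lowest circle is Col3a1 at -0.75.

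Few genes that modify, cleave, cross-link, bind or degrade collagen passed the test. Of the 21 tested genes of collagen modification and folding, 20 had a diet estimate above 0, against 50.8% of all tested genes. The median log2 fold change was 0.14, against 0.00 for all tested genes. At an unadjusted p under 0.05 there were 3 higher and 1 lower for diet, against 6.45% of all tested genes lower. Limma called 1 of the 21, against 0.258% of all tested genes. It was P4ha1, the catalytic subunit of prolyl 4-hydroxylase, with 7.48 ± 0.27 FPKM in aged CR mice, against 5.28 ± 0.67 FPKM in aged AL mice, and 6.92 ± 0.11 FPKM in young CR mice, against 5.04 ± 0.66 FPKM in young AL mice (log2 fold change 0.42; limma, adjusted p = 0.0465). This call was kept in only 2 of the 12 fits without 1 mouse, those without aged CR mouse 5 or aged AL mouse 14, and was lost without the filter on low values and without the trend. For age limma called 0 of the 21, against 0.758% of all tested genes. At an unadjusted p under 0.05 there were 2 higher and 4 lower for age, against 9.76% of all tested genes lower. Of the 5 tested genes of procollagen cleavage 1 was called for age, against 0.758% of all tested genes. It was Pcolce2, which enhances the removal of the C-propeptide, lower in aged mice with a log2 fold change of -0.69 (adjusted p = 0.0055). It averaged 0.943 ± 0.167 and 0.783 ± 0.104 FPKM in aged CR and aged AL mice, against 2.55 ± 0.34 and 1.56 ± 0.34 FPKM in young CR and young AL mice. It therefore reached the minimum mean of 1 FPKM only through the young mice. Of the 14 tested genes of the fibril-associated matrix, Lum, the proteoglycan lumican that binds collagen fibrils, was called lower in aged mice (-0.87, adjusted p = 0.0429). Thbs1, thrombospondin 1, was called higher in aged mice (0.84, adjusted p = 0.0361). Of all tested genes 0.758% were called for age in either direction. The call of Lum was kept only without young CR mouse 3, aged CR mouse 6, aged AL mouse 13 or aged AL mouse 14, and that of Thbs1 only without young CR mouse 3, aged CR mouse 6 or aged AL mouse 14. Both were lost without the filter on low values. Lum averaged 15.5 ± 0.83 FPKM in aged CR, 22.6 ± 9.19 in aged AL, 30.2 ± 4.82 in young CR and 38.7 ± 3.45 FPKM in young AL mice, an order like that of Col3a1. Limma called none in any of the 7 comparisons among the 5 tested genes of cross-linking, the 7 of basement membrane partners, the 8 collagen receptors, the 10 genes of collagen degradation and the 6 regulators. At an unadjusted p under 0.05 these lists had, in the same order, 1, 2, 1, 2 and 1 genes higher and 2, 0, 0, 0 and 1 lower for diet. For age they had 1, 0, 2, 1 and 1 genes higher and 1, 0, 1, 1 and 2 lower. Of all tested genes 6.45% were lower at this p for diet and 9.76% for age. The shares that were higher at this p for diet and for age are not reported here. Counts of higher genes for diet and age in this and the next paragraph therefore have no reference. The most abundant cross-linking genes, Tgm2 and Lox, had diet estimates of 0.06 and 0.30 and age estimates of 0.27 and -0.20. The most abundant basement membrane partners, Agrn and Lamb2, had diet estimates of 0.10 and 0.07, and the most abundant collagen receptor genes, Itgb1 and Gp6, had age estimates of 0.29 and 0.48 (adjusted p = 0.170 and 0.141). Among the genes of degradation the gelatinase gene Mmp9 had a diet estimate of 0.23 and Ctsk, the collagen-degrading protease of osteoclasts, one of 0.51 (adjusted p = 0.207). The most abundant regulators, Tgfb1 and Ctgf, had diet estimates of -0.14 and 0.64 (adjusted p = 0.543 and 0.128).

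Markers of other cell types of the tibia were measured beside the collagens. The summed level of the 10 osteoblast and osteocyte markers was 843.5 to 1069 FPKM in aged CR and 522 to 1711 in aged AL mice, against 1113 to 1350 in young CR and 1567 to 2116 FPKM in young AL mice. Limma called 0 of 10 for age and 0 of 10 for diet (0 unadjusted). For age 5 of 10 had an unadjusted p under 0.05, all lower, against 9.76% of all tested genes lower. Bglap and Bglap2, the osteocalcin genes, and Spp1 make up most of this sum. Over the list CR minus AL was above 0 for 5 of 10 markers in young mice, with a median log2 fold change of -0.05, and for 8 of 10 in aged mice, with a median of 0.34. Adipocyte markers summed to 406.7 to 632.2 FPKM in aged CR mice, against 222.6 to 393.7 FPKM in aged AL mice, and to 428.4 to 552.9 FPKM in young CR mice, against 238.7 to 270.1 FPKM in young AL mice. All 5 adipocyte markers tested were higher on CR over both ages at an unadjusted p under 0.05, with a median log2 fold change of 1.07. The same held in young and in aged mice taken separately, with medians of 1.25 and 1.01 and 0 of 5 called in each. Over both ages limma called Retn and Cidec, against 0.258% of all tested genes. The call of Retn was kept in all 12 fits without 1 mouse and that of Cidec in 4, and both were lost without the filter on low values. Skeletal muscle markers ranged from 120.9 to 715.9 FPKM in aged CR, 253.8 to 823.4 in aged AL, 112.6 to 333.9 in young CR and 137.2 to 265.8 FPKM in young AL mice, with 0 of 7 called by limma for age (2 unadjusted, higher) or diet (0 unadjusted). Of the 8 endothelial markers 1 was called for age, against 0.758% of all tested genes. It was Pecam1, higher in aged mice (0.34, limma adjusted p = 0.0487). No other of the 8 had an unadjusted p under 0.05 for age. Over the list 6 age estimates were above 0 and 2 below, with a median log2 fold change of 0.07. The call of Pecam1 was kept in 2 of the 12 fits with 1 mouse left out (young CR mouse 3 or aged CR mouse 6). It was lost without the filter on low values, without the trend and with both aged AL mouse 14 and aged CR mouse 5 left out. Among the 5 marrow leukocyte and 3 stromal markers limma called 0 for age (0 unadjusted) and 0 for diet (1 lower and 1 higher unadjusted, against 6.45% of all tested genes lower). Of the 5 erythroid markers 4 are globins, whose top ranks quantile normalization sets to nearly the same values in all mice, so that they cannot measure a difference in red cells. The remaining one, Alas2, had a diet estimate of 0.25. The part of these cell types in the collagen levels was not tested.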

How the data were processed

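Whole tibiae of 12 mice in 4 groups of 3 were measured by stranded, poly(A)-selected RNA-seq. Per the labels and methods, the authors used FastQC 0.11.8 and MultiQC 1.6 for read quality, Trim Galore 0.5.0 for adapters, STAR 2.6.1 for alignment (mm10) and StringTie 2.1.3b for levels. The authors deposited quantile-normalized FPKM, 1 column per mouse. The way the 4 technical repeats of a mouse became 1 column is not stated in them. Quantile normalization gives each mouse the same set of values, so a change in total RNA cannot be seen, and the depth per mouse is unknown. Mice, not repeats, were the replicates, and groups followed the labels.

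Testing covered the 13590 of 29801 genes that averaged 1 FPKM or more, on log2(FPKM + 1) with limma 3.58.1 in R 4.3.3, with a mean-variance trend and 1 model of 4 group means over all 12 mice, from which the 7 comparisons were drawn. The p-values were adjusted by Benjamini-Hochberg within each comparison over all tested genes, at a threshold of 0.05. A fold change on the log2(FPKM + 1) scale understates the change of low genes. The kind of test in the authors' methods, an unequal-variance test per gene on FPKM, was an alternative, since limma shares the estimate of the spread between genes in groups of 3. Ratios of chains were tested by an exact permutation of the mice within the strata of the other factor (400 permutations), adjusted over 14 tests. Correlations were tested by 100000 permutations over all 12 mice, without regard to the groups, adjusted over 45 pairs. Python 3.11.15 with scipy 1.17.1 was used for these tests. Procedures were tested on simulated data. Named in the text are the 10 genes, every gene of the lists that was called, the 2 most abundant genes of a list without a call and the 8 genes most like each collagen, of which 1 is not reported here. For Col3a1 this ranking was added after its values were seen. The genes and the lists were chosen with earlier results of these data known. Positions come from GENCODE M21 (GRCm38), promoters from RefSeq (GRCm38.p6), and 69 names are listed more than once in the table, none of them a gene studied here. The alternatives were a pseudocount of 0.1 FPKM, no filter on low values, size factors, quality weights, no trend, a fit of only the groups compared, and leaving out each mouse in turn. Leaving out aged AL mouse 14 and aged CR mouse 5 together was added after seeing the data.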

Additional observations from a re-analysis of the deposited data

How the results depend on the processing

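No paired analysis was possible because each mouse has a number of its own in the labels, repeated only over its technical repeats, and no label says which mice of the diet groups were littermates, although the study describes the AL mice as littermates of the CR mice. By adjusted p, the number of the 10 collagen genes called was 0 under each alternative except quality weights and 1 mouse left out. With a quality weight per mouse limma called 1 gene in the diet and 1 in the age comparison, 1 between aged CR and aged AL mice and 2 between aged CR and young CR mice. These were Col3a1 each time and, on CR, also Col6a2, while over all tested genes the calls in the same order were 923, 1798, 193 and 1711, against 35, 103, 0 and 49 without weights. Leaving out 1 mouse gave 0 to 1 calls for age and 0 to 1 for aged against young mice on CR, the call in both being Col3a1 without aged AL mouse 13. The adjusted p of Col3a1 over all alternatives lay between 0.00547 and 0.171 for age and between 0.0185 and 0.311 for diet. Without a filter on low values the calls over all genes for CR against AL in young and in aged mice, for diet, age, aged against young on AL and on CR and the interaction were 5, 1, 9, 44, 6, 22 and 0, against 9, 0, 35, 103, 9, 49 and 0. The unequal-variance test, unadjusted, called 2 genes (Col4a1 and Col4a2) in young mice, against 8.65% of all tested genes.

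None of the estimates that changed sign was called. With quality weights the age estimates were 0.24 for Col1a1, 0.16 for Col1a2 and 0.10 for Col5a1, and CR minus AL in aged mice was -0.077 for Col1a1 and -0.26 for Col1a2. With aged AL mouse 14 and also aged CR mouse 5 left out, the age estimates were 0.10 for Col1a1, 0.038 for Col1a2 and 0.070 for Col5a1, and CR minus AL in aged mice was -0.0042 for Col1a2 and 0.087 for Col4a2. With size factors the age estimate of Col5a1 was 0.010. With 1 mouse left out, diet estimates ran from -0.024 to 0.13 for Col5a1, -0.19 to 0.046 for Col5a2 and -0.0010 to 0.11 for Col6a1. Age estimates ran from -0.060 to 0.10 for Col5a1, -0.00099 to 0.083 for Col4a2 and -0.027 to 0.066 for Col6a3. CR minus AL in aged mice ran from -0.050 to 0.50 for Col1a1, -0.20 to 0.49 for Col1a2, -0.041 to 0.16 for Col4a1 and -0.16 to 0.0062 for Col4a2. Log2 differences of ratios ran from -0.012 to 0.085 for Col1a1/Col1a2 by diet and -0.036 to 0.25 for Col5a1/Col1a1 by age. The causes were not tested. The alternatives were followed for 39 estimates of the 10 genes, covering all 10 only in the diet and age comparisons. Under the alternatives 677 of their values kept direction and side of the threshold, 32 changed sign and 7 came to be called. With 3 mice per group and unknown depth, a gene that was not called may still differ between the groups. The intervals given are unadjusted and are not limits of detection.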
